A study of Drosophila melanogaster with 34 samples.

Results

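Of the 8938 Combgap (Cg) peaks called in wild-type (WT) Drosophila melanogaster larvae on X, 2L, 2R, 3L, 3R and 4, 449 overlapped no peak of Crooked legs (Crol), neither in WT nor in crol knockout (crol-KO) larvae. These Crol-free sites made up 5.02% of WT Cg peaks, with an exact Clopper-Pearson 95% interval of 4.58% to 5.50%. The rule uses positions: a peak was a member when no base of it fell in a Crol peak of either genotype. Their lack of larval Crol is therefore the rule itself and not a result. The list of Cg peaks in crol-KO larvae and the list of Crol peaks in S2 cells had no part in the choice, and these lists give the main readouts below. The crol-KO Crol list, which the rule does use, shares its genotype with the crol-KO Cg list.

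Cg is a zinc finger protein that binds Polycomb response elements, the DNA elements from which Polycomb group complexes keep genes silent in Drosophila. It has been tied to the Polyhomeotic-containing complex PRC1. Crol is a zinc finger protein of the C2H2 kind that binds G-rich DNA. The study presents it as a partner of Cg and as a further recruiter of Polycomb group proteins, which makes Cg sites that lack Crol the counterpart to the sites both proteins share.

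The study profiled chromatin by ChIP-seq, in which DNA bound by a protein is enriched with an antibody and sequenced. Larval samples pooled brains with imaginal discs, both from the third instar, so each list mixes several tissues and cell types. Cg and Crol were each profiled in WT and in crol-KO larvae, and Crol also in S2 cells, a cultured Drosophila line of embryonic origin. In the lists used here, Crol was enriched with the antibody CrolN, raised against residues 1 to 188 of the protein. The series also holds WT larval samples for the antibody CrolC and a further WT larval CrolN set. Neither was analysed here, so Crol-free refers to the lists used. The crol-KO allele is a deletion made by CRISPR/Cas9. The study describes Crol of maternal origin that remains on chromatin in these larvae, so crol-KO means reduced Crol and not its full absence. The S2 samples are named as S2 cells in their titles but carry the larval tissue label. The titles were followed.

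Each of the 5 groups had 2 samples, whose reads were pooled by the authors before peaks were called. Every group therefore gave 1 list, no difference between groups has a replicate check, and no p-value is given. Between 3.42 and 5.77 M reads stood behind a list, as recovered from the peak values. The intervals below cover counting error only and treat peaks as independent. Intervals of differences between sets cover the error of the Crol-free share alone, and are therefore too narrow. Strength is the authors' fold enrichment at the summit, a ratio of read pileup to local background that was compared within a list only. Backgrounds at shared summits stood in a fixed ratio between the Cg and Crol lists of a genotype, within 1% at 61 of 61 summits in WT and at 76 of 76 in crol-KO. Between genotypes this held at 5 of 72 summits for Cg and at 3 of 60 for Crol. Cg and Crol of a genotype thus appear to share control reads, and the part this plays in the overlaps was not tested.

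Crol-free Cg peaks were weak. Their fold enrichment in WT had a median of 2.80 (95% interval 2.74 to 2.86, n = 449) and ran from 1.61 to 8.40, against a median of 3.92 at the 7312 WT Cg peaks with Crol in both genotypes. The 472 peaks with Crol in WT only and the 705 with Crol in crol-KO only were about as weak, with medians of 2.70 and 2.89. Low strength was thus shared by the 3 smaller sets and was not particular to the Crol-free one. At the summit a median of 36 extended reads lay over a Crol-free site, with a range of 21 to 175, against 61 at sites with Crol in both genotypes. The local background was lower as well, with medians of 12.4 and 15.4. Crol-free peaks were also narrow, at a median of 363 bp, against 392 bp with Crol in WT only, 394 bp with Crol in crol-KO only and 549 bp with Crol in both genotypes. Of them, 39 or 8.69% had the minimum width of 300 bp, against 0.697% of peaks with Crol in both genotypes.

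**Figure D1:**
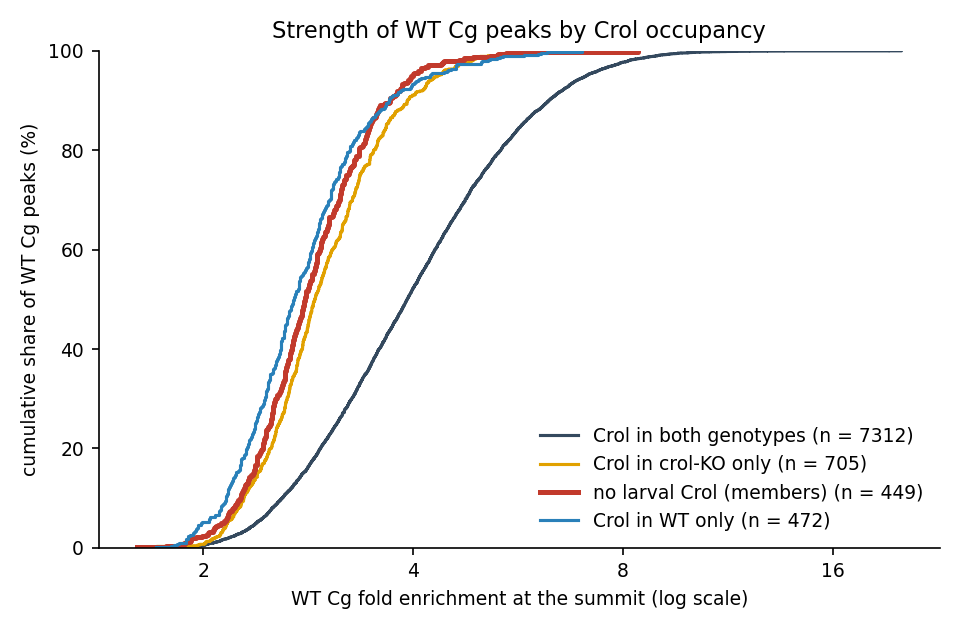
Cumulative share of WT Cg peaks (vertical axis, %) up to a given fold enrichment at the summit (horizontal axis, log scale), for the 4 sets defined by larval Crol peaks. The Crol-free curve (median 2.80) runs with the curves for Crol in WT only (2.70) and in crol-KO only (2.89), left of Crol in both genotypes (3.92).

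The Crol-free share fell with strength. It was 12.0% in the weakest decile of WT Cg peaks by fold enrichment, 9.51% in the third decile, 5.26% in the fifth and 1.23% in the seventh. Only 9 Crol-free peaks lay in the strongest 3 deciles, and 1 of them in the strongest. That peak, chr3L:7806515-7807017 in dm3 coordinates, had 92 reads at its summit over a background of 10.1 and ranked 119 of 8938. It was found in crol-KO as well, where its Cg fold enrichment was 5.15. It carried an S2 Crol peak of 4.41 fold, whereas the nearest larval Crol peak was 2430 bp away.

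At the edge of the rule, the member nearest to Crol was chr3R:18552055-18552406, which lay 11 bp from a crol-KO Crol peak and had a fold enrichment of 2.75. The next, chr2R:13557261-13557829, lay 50 bp from one and had a fold enrichment of 3.31. Just outside, chr3R:21057892-21058406 shared 5 bp with a WT Crol peak and chr2L:8602742-8603067 shared 18 bp with a crol-KO Crol peak, with fold enrichments of 2.15 and 2.16. Few sites sat so close to the limit: 32 of 449 lay within 300 bp of a larval Crol peak, and 13 lay beside a peak number that the Crol lists skip.

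About equal numbers of the Crol-free sites were found and not found in crol-KO larvae. A Cg peak of crol-KO overlapped 239 of 449, which is 53.2% (48.5% to 57.9%), and the other 210 had none. Over all WT Cg peaks this share was 89.4%. It was 95.4% (94.9% to 95.8%) at peaks with Crol in both genotypes, 88.5% (85.9% to 90.8%) with Crol in crol-KO only and 33.5% (29.2% to 37.9%) with Crol in WT only. Both sets without a crol-KO Crol peak, the Crol-free set among them, thus had the lower shares. The crol-KO Cg and crol-KO Crol lists appear to share control reads, and what this adds to the match between them was not tested.

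The lower share remained at equal strength. Peaks with Crol in both genotypes, weighted to the deciles of fold enrichment in which the Crol-free peaks lie, had a crol-KO Cg peak in 88.0% of cases. The Crol-free share was 34.7 points lower, and with the counting error of the Crol-free share alone this difference ran from -39.5 to -30.1 points. Weighting by decile of the −log10 q-value, of the summit pileup or of the peak width gave -32.1, -32.3 and -32.4 points. The Crol-free share was also 33.8 points below that of equally strong peaks with Crol in crol-KO only. Against peaks with Crol in WT only it was higher, by 17.4 points (12.6 to 22.1). A rule on WT Crol alone, which leaves crol-KO Crol out of the choice of members, gave 1154 sites. Their difference from peaks with Crol in both genotypes was smaller, at -14.1 points (-16.7 to -11.6). That comparison set still required a crol-KO Crol peak, so the choice on this list was only partly removed.

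Among Crol-free sites themselves the stronger peaks were found again more often. In the weakest decile 36 of 107 had a crol-KO Cg peak (33.6%, 24.8% to 43.4%), in the third 42 of 85 (49.4%, 38.4% to 60.5%) and in the fifth 32 of 47 (68.1%, 52.9% to 80.9%). The corresponding shares with Crol in both genotypes were 76.5%, 91.8% and 96.2%. Intervals did not overlap between these sets in any of the first 6 deciles. Sites found again had a median WT fold enrichment of 2.98, and sites not found again one of 2.67.

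**Figure D2:**
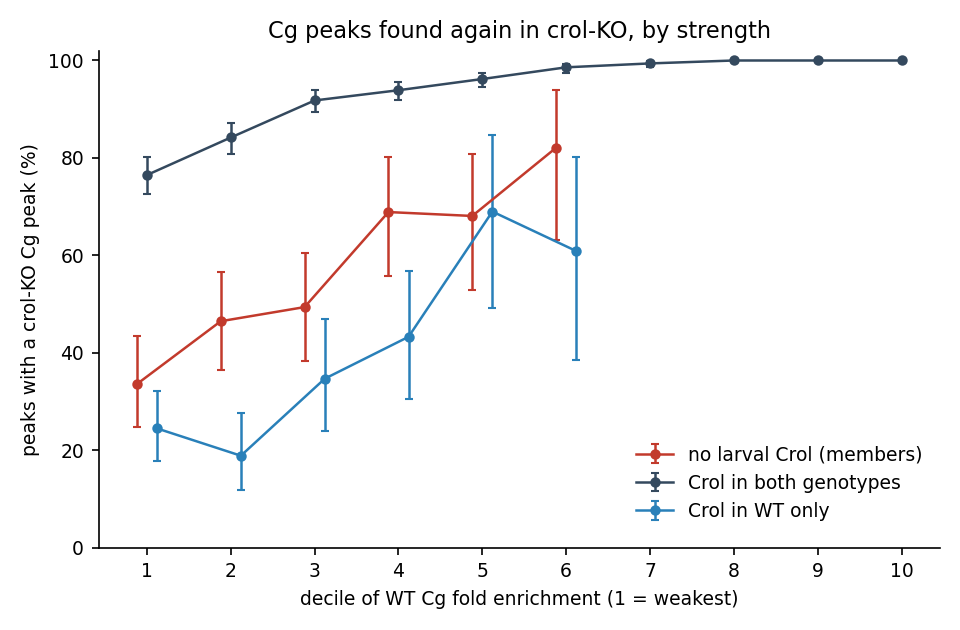
Share of WT Cg peaks with an overlapping crol-KO Cg peak (vertical axis, %) in each decile of WT Cg fold enrichment (horizontal axis, 1 is weakest), with exact 95% intervals and with points of fewer than 20 peaks left out. Crol-free peaks rise from 33.6% to 82.1% over the first 6 deciles and lie below peaks with Crol in both genotypes (76.5% to 98.6%) in each.

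Where a Crol-free site kept a Cg peak in crol-KO, its place in the list was on balance the same. The 210 sites without a crol-KO Cg peak have no place in that list, so the changes below leave them out. The 239 sites had a median percentile of 28.4 in the WT list and of 28.3 in the crol-KO list. The change per site had a median of 0.390 percentile points (-3.71 to 4.01), with single values from -50.6 to 81.3 points. The highest value was at chrX:17596125-17596424, whose crol-KO partner had its summit 812 bp away. Under the 1 bp rule such a pair need not be the same peak. Peaks with Crol in WT only dropped by a median of 6.22 points, and those with Crol in crol-KO only gained 7.55. In the weakest 4 deciles the gain was 3.46 points at Crol-free sites against 12.2 at sites with Crol in both genotypes. It was 11.2 points with Crol in crol-KO only, and the change was -0.787 points with Crol in WT only. All these sets were chosen in part on the crol-KO Crol list, which appears to share control reads with the crol-KO Cg list. The part this plays in the changes was not tested. Summits of the paired Cg peaks lay a median of 33 bp apart, against 36 bp with Crol in both genotypes. Of the 239 crol-KO partner peaks, 7 reached into a larval Crol peak. A low count follows largely from the rule, since each partner overlaps a site that touches no larval Crol peak.

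**Figure D3:**
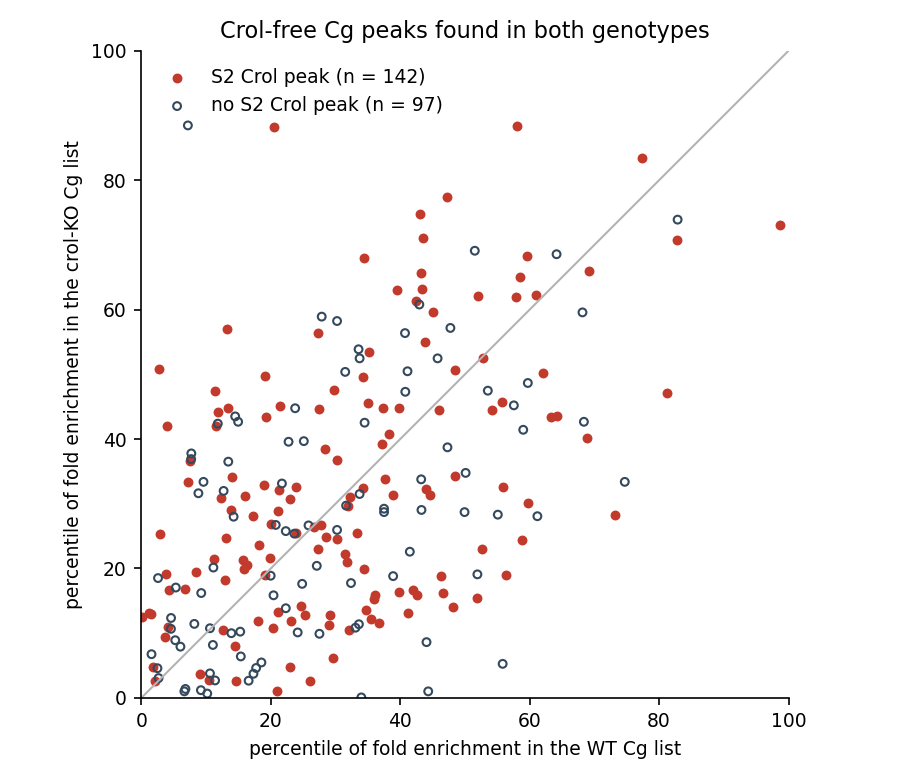
Percentile of fold enrichment in the WT Cg list (horizontal axis) and in the crol-KO Cg list (vertical axis) of the 239 Crol-free sites found in both, with filled points for the 142 sites with an S2 Crol peak, open points for the 97 without, and a line of equal percentile. The points scatter widely to both sides of the line, with median percentiles of 28.4 and 28.3.

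Many sites without Crol in larvae had Crol in S2 cells. An S2 Crol peak overlapped 219 of 449 Crol-free sites, or 48.8% (44.1% to 53.5%), against 66.6% over all WT Cg peaks. The share depended on the overlap rule: with an overlap of 50% of both peaks it was 25.6% of 919 Crol-free sites, and with windows around summits 36.7% of 762. The S2 libraries differ from the larval ones in cell type and in depth, and these cannot be told apart. At equal fold enrichment, peaks with Crol in both genotypes had an S2 Crol peak in 53.2% of cases. The Crol-free share was 4.44 points lower, in an interval of -9.15 to 0.291. Weighting by peak width gave -6.68 points (-11.4 to -1.95), and counting S2 peaks within 1000 bp gave -7.21 points (-11.9 to -2.54). Weighting by −log10 q-value gave 2.35 points (-2.36 to 7.08) and by summit pileup 6.76 points (2.05 to 11.5), so the sign against sites with Crol in both genotypes rested on the measure of strength.

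Against the smaller Crol-bound sets the S2 difference kept its sign. Peaks with Crol in crol-KO only had S2 Crol in 65.7% of cases, and at equal fold enrichment the Crol-free share differed from theirs by -15.5 points (-20.2 to -10.7). By −log10 q-value this was -11.5 points (-16.2 to -6.75) and by summit pileup -6.23 points (-10.9 to -1.50). These intervals leave out the counting error of the Crol-bound peaks, which matters most for the smallest difference. Against peaks with Crol in WT only, the Crol-free share was higher, by 11.8 points (7.07 to 16.5) at equal fold enrichment, by 14.2 at equal −log10 q-value and by 17.0 at equal summit pileup. The Crol-free sites thus lay between these sets in S2 Crol.

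The S2 peaks at Crol-free sites ranked low in their list, as did those at sites with Crol in crol-KO only. Their percentile within the S2 list had a median of 30.5, against 36.0 with Crol in crol-KO only, 53.6 with Crol in WT only and 67.6 with Crol in both genotypes. Summits of Cg in WT and Crol in S2 cells lay a median of 37 bp apart at Crol-free sites. The other sets had medians of 46 bp with Crol in both genotypes, 44 bp with Crol in crol-KO only and 61 bp with Crol in WT only. The 230 sites without an S2 peak were mostly far from one, at a median of 6032 bp. Counting S2 peaks within 1000 bp raised the number of sites from 219 to 246.

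Crol-free sites with S2 Crol were found in crol-KO more often. A crol-KO Cg peak was present at 142 of 219 (64.8%, 58.1% to 71.2%), and at 97 of 230 without S2 Crol (42.2%, 35.7% to 48.8%). At equal fold enrichment the difference was 16.1 points, and at equal −log10 q-value or summit pileup it came to 10.1 or 7.40 points, so its size depends on how strength is measured. The same direction was seen with Crol in both genotypes, at 98.2% against 88.8%, and with Crol in WT only, at 56.7% against 21.1%.

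Both readouts divide the 449 sites into 4 classes. A Cg peak in crol-KO and Crol in S2 cells were both present at 142 sites (31.6%), and both absent at 133 (29.6%). Another 97 sites (21.6%) had only the crol-KO Cg peak, and 77 (17.1%) only the S2 Crol peak. Median WT fold enrichment was 3.03 where both were present, 2.89 with crol-KO Cg only, 2.78 with S2 Crol only and 2.62 where both were absent.

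The strongest site of each class shows what its peaks look like. For the class with both, this was the 3L site described above. With crol-KO Cg only, chr2R:10314457-10314896 had a fold enrichment of 5.29 from 58 reads in WT and of 5.22 from 61 reads in crol-KO, with both summits at the same base. Its nearest larval Crol peak lay 3307 bp away and its nearest S2 Crol peak 6719 bp. With S2 Crol only, chr2R:9291126-9291600 had 96 reads over a background of 15.4 in WT and 106 reads in S2 cells with a summit 12 bp away, but no Cg peak in crol-KO. With neither, chr3L:3071649-3072744 was the widest of all members at 1096 bp and had a fold enrichment of 5.43 from 115 reads. It lay 652 bp from a WT Crol peak and beside a skipped Crol peak number, so a Crol peak at this place may be among those not analysed here.

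The other named sites of these classes were weaker. On 3L, chr3L:6918892-6919378 had fold enrichments of 5.28 in WT and 4.99 in crol-KO Cg and of 2.52 in S2 Crol, at 8666 bp from larval Crol. On 2L, chr2L:11091077-11091484 went from 5.16 in WT to 3.82 in crol-KO and had an S2 Crol peak of 2.68. A pair of sites on X, chrX:4134123-4134603 and chrX:20954288-20954667, lacked S2 Crol and had crol-KO Cg peaks of 3.29 and 3.63 after 4.74 and 4.39 in WT. Sites with S2 Crol but no crol-KO Cg followed at 3.86 on 3L (chr3L:9490570-9490907) and 3.84 on 2R (chr2R:4949278-4949650). Sites with neither followed at 4.10 on 3L (chr3L:1046282-1046683) and 3.79 on 3R (chr3R:6270383-6270780).

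Under the 1 bp rule most Crol-free sites were kilobases away from larval Crol. The nearest Crol peak of either genotype lay at a median of 2849 bp (2387 to 3181), with quartiles at 1076 and 6225 bp. The median was 909 bp for the 762 sites chosen by windows around summits, and 0 bp for the 919 chosen by an overlap of 50% of both peaks, which may touch Crol peaks. No Crol peak lay within 1000 bp of 343 sites (76.4%) and none within 5000 bp of 139 (31.0%). Medians to the nearest WT and crol-KO Crol peak were 3553 and 3397 bp, and for 296 sites (65.9%) these distances differed by at most 300 bp. The nearest WT and crol-KO Crol peaks overlapped each other for 302 sites (67.3%, 62.7% to 71.6%). Distances above 0 follow from the 1 bp rule, and these counts have no counterpart from another set. For scale, the nearest other WT Cg peak lay at a median of 3393 bp from Crol-free sites. It lay at 2444 bp from sites with Crol in both genotypes, so spacings of kilobases were common to WT Cg peaks.

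**Figure D4:**
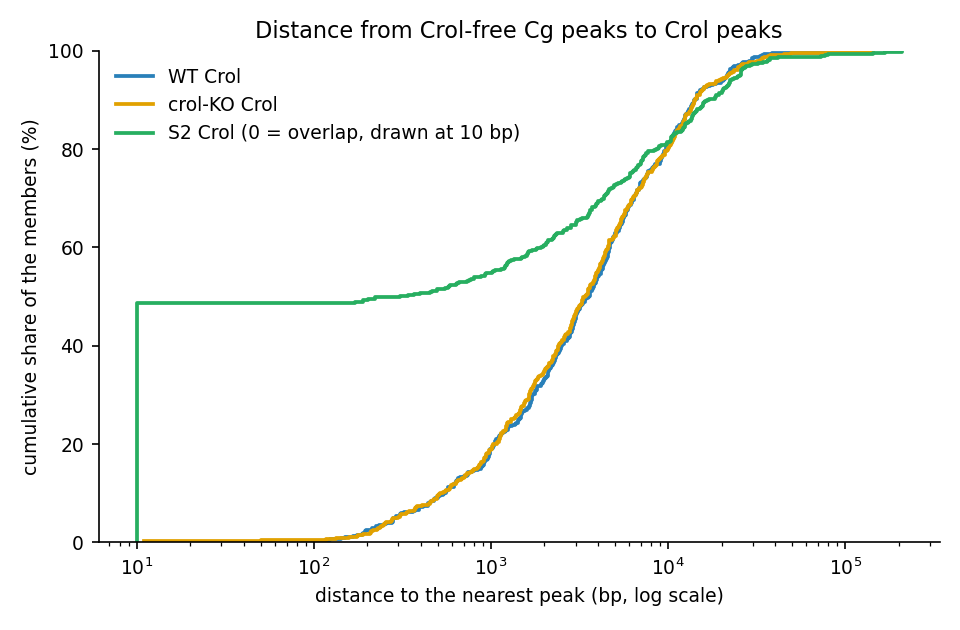
Cumulative share of the 449 Crol-free sites (vertical axis, %) by distance to the nearest WT, crol-KO or S2 Crol peak (horizontal axis, bp, log scale). The larval curves coincide, with medians of 3553 and 3397 bp, whereas the S2 curve starts at 48.8% because 219 sites overlap an S2 peak.

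Neither readout showed a clear trend over bins of distance, and no trend was tested. A crol-KO Cg peak was present at 62.5% of the 32 sites within 300 bp of larval Crol, at 51.4% of 74 sites up to 1000 bp, at 51.0% of 204 up to 5000 bp, at 56.8% of 118 up to 20000 bp and at 47.6% of the 21 beyond. For S2 Crol these shares were 40.6%, 48.6%, 53.4%, 44.1% and 42.9%. Within each readout all intervals of these bins overlapped, and the outermost bins hold few sites. Median WT fold enrichment in these bins was 2.73, 2.70, 2.78, 2.91 and 3.01, and the shares were not weighted for it.

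The farthest sites were of modest strength. On 3L, chr3L:23564673-23565029 lay 142806 bp from larval Crol and 142836 bp from any other WT Cg peak, with 35 reads in WT and a crol-KO Cg peak whose summit was 223 bp away. Also on 3L, chr3L:23251578-23251890 lay 79115 bp from larval Crol. It had no crol-KO Cg peak but an S2 Crol peak of 106 reads and 6.05 fold. On X, chrX:16385102-16385402 lay 34065 bp away and had fold enrichments of 3.03 in WT and 4.28 in crol-KO, without S2 Crol.

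In Crol occupancy, the neighbours of Crol-free sites were close to those of any WT Cg peak. Of 449, 392 (87.3%) had no Crol-free site as direct neighbour in the list, against 90.3% of all WT Cg peaks. Another 48 stood in 24 pairs, and 9 in 3 runs of 3. The nearest other WT Cg peak lay at a median of 3393 bp and had Crol in both genotypes for 350 sites (78.0%), against 82.1% over all WT Cg peaks. It was itself Crol-free for 6.01%, against 4.59%. Another WT Cg peak lay within 1000 bp of 18.9% of Crol-free sites (15.4% to 22.9%), against 29.1% (28.1% to 30.2%) with Crol in both genotypes and 26.2% to 27.1% in the other smaller sets.

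All 3 runs were on 3R. In the run from 7235507 to 7247805, each site had S2 Crol and 2 had crol-KO Cg, at WT fold enrichments of 2.10 to 2.79. The run from 23755367 to 23764355 had the same counts at 2.76 to 3.50. The run from 22646156 to 22672766 had neither readout at any site, with WT fold enrichments of 2.08 to 2.31 and 24 to 25 reads per summit.

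Crol-free sites were found on every arm, at 4.33% of WT Cg peaks on X, 5.35% on 2L, 5.04% on 2R, 4.66% on 3L, 5.71% on 3R and at 2 of 82 peaks on 4. They differed by arm in the S2 readout. On X, 18 of 68 had an S2 Crol peak, or 26.5% (16.5% to 38.6%), whereas 201 of 379 on 2L, 2R, 3L and 3R did, or 53.0% (47.9% to 58.1%). Peaks with Crol in both genotypes had no such gap, with 70.9% (68.3% to 73.3%) on X and 67.2% to 73.1% on the 4 large autosomal arms. At the fold enrichment of the Crol-free sites, Crol-bound peaks on X had S2 Crol in 54.8% of cases, and at their summit pileup in 42.1%. The arm was picked out after its value was seen, and no test was made of it.

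Sites with Crol in crol-KO only also had their lowest S2 share of these 5 arms on X, at 56.2% against 63.4% to 73.6%, and those with Crol in WT only had 27.9% against 30.5% to 45.0%. The summit pileup of Crol-free sites was lower on X, at a median of 32.5 reads against 37 on the autosomal arms, although their fold enrichment was 2.95 against 2.78. The part of this lower pileup in the S2 share was not tested. The share with a crol-KO Cg peak did not fall in the same way: it was 61.8% on X (49.2% to 73.3%) and 51.7% (46.6% to 56.8%) on the autosomal arms.

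**Figure D5:**
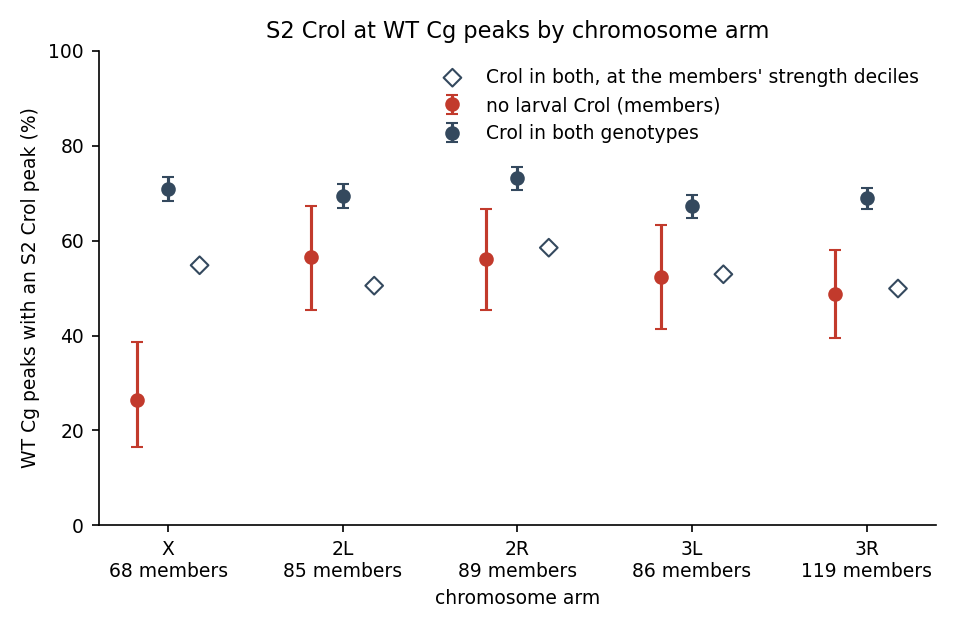
Share of WT Cg peaks with an overlapping S2 Crol peak (vertical axis, %) on 5 chromosome arms, for Crol-free sites and for sites with Crol in both genotypes, with exact 95% intervals, and for the latter at the fold enrichment deciles of the Crol-free sites (diamonds, no interval). On X the Crol-free share of 26.5% lies apart from the 48.7% to 56.5% of the other arms.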

How the data were processed

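Peak lists of 10 samples in 5 groups were used, and the other 24 samples of the series were not analysed here. Per the study's methods and the submitters' processing notes, the authors trimmed reads (Trim Galore 0.6.5), aligned them to dm3 (Bowtie2 2.3.5), removed duplicates (SAMtools 1.13), pooled replicates and called narrow peaks with MACS2 2.2.5 at a q-value of 0.05 with reads extended to 300 bp. The deposited lists give positions, a score, the fold enrichment (ratio to local background) and, on the −log10 scale, the p-value and the q-value of each summit. The control used for calling is not given in the sources used here. Between 332 and 357 peak numbers are skipped per list and were not analysed here.

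A peak counted as shared at an overlap of 1 bp. Summit pileup and background were solved from fold enrichment and −log10 p-value, with a whole-number pileup found for 97.6% (S2) to 100% of peaks, within 0.01 of the deposited −log10 p-value. Strength-weighted shares used 10 strata over all WT Cg peaks. Python 3.11.15, numpy 2.4.6, pandas 2.3.3, scipy 1.17.1 and matplotlib 3.10.9 were used. Overlaps were checked against bedtools 2.31.1.

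The sites and comparisons were chosen with earlier results of these data known. Named sites were the 5 strongest, the 3 strongest per class, the 3 farthest from larval Crol, the longest runs of neighbours and the 2 nearest to either side of the rule. No genome or annotation of dm3 was at hand, so neither genes nor sequences are given.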

Additional observations from a re-analysis of the deposited data

Results flagged for a closer look

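Outside the 6 arms, which are all that the comparisons above use, 5 of the 43 WT Cg peaks overlapped no larval Crol peak. This is 11.6% (3.89% to 25.1%), an interval that holds the 5.02% of the arms. Among them, 3 had a Cg peak in crol-KO and 2 a Crol peak in S2 cells, at WT fold enrichments of 2.22 to 4.81.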

How the results depend on the processing

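Of 61 values under 12 alternatives, 33 kept their direction and stayed close to the value above. No larval Crol within 1000 bp left 343 sites (3.84% of WT Cg peaks) at a median distance of 4024 bp. An overlap of 50% of both peaks gave 919 (10.3%), with crol-KO Cg at 43.5%, S2 Crol at 25.6%, a median distance of 0 bp and a weighted S2 difference of -12.2 points. Windows of 150 bp to each side of the summits gave 762 (8.53%), with 47.8%, 36.7%, 909 bp, -11.1 points and a median fold enrichment of 2.88. A rule on WT Crol alone gave 1154 (12.9%), with crol-KO Cg at 74.8% and S2 Crol at 59.1%. Against peaks with Crol in both genotypes, its weighted crol-KO difference was -14.1 points. Its S2 difference was 4.48 points, which turned its sign. A −log10 q-value of at least 5 left 307 (3.82%), with 61.6%, 56.0% and a fold enrichment of 3.03. Readout peaks within 1000 bp gave 60.6% and 54.8%. Unweighted differences were -42.1 points for crol-KO Cg and -21.1 for S2 Crol. Weighting by −log10 q-value or by summit pileup, both chosen after seeing the data, turned the S2 difference to 2.35 and 6.76 points. The cause was not tested.

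No paired analysis was possible because replicates were pooled before peaks were called, which also kept single replicates from being left out. Depth limits the weak sites most: their median summit pileup of 36 reads compares with a lowest of 21, and a missing peak is not evidence of missing protein. Genes, motifs and sequence at the sites were not analysed here.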
